A study of Mus musculus with 2 samples.

Results

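Lipid-associated macrophage genes are the 10 genes Apoe, Trem2, Gpnmb, Spp1, Lpl, Cd36, Fabp4, Fabp5, Cd9 and Lgals3, picked by symbol from the 32285 genes of the count tables. All 10 were found in both libraries, and each symbol stood for 1 gene. They were measured in single living white blood cells (CD45-positive, enriched with beads and then sorted) from orthotopic liver tumours of wild-type C57/BL6 mice, grown from the mouse hepatoma line Hepa1-6. The treated mice had been given anti-PD-1, which blocks an inhibitory receptor of T cells, and the control mice an isotype antibody (IgG). Each treatment is 1 droplet library made with the 10x Genomics 3′ chemistry, version 2, so no test between the treatments was possible, and how many mice stand behind each library could not be taken from the labels. All intervals below are exact 95% intervals that cover counting error only, apart from a few whose width was taken over, as said where they appear.

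Macrophages that take up lipid from dying cells, myelin or fat-laden tissue are known to switch on a shared programme in fat tissue, atherosclerotic plaque, fatty liver, brain and tumours. TREM2 is the surface receptor of that programme; it binds lipids and lipoproteins, ApoE among them, and signals through the adaptor TYROBP. Lipoprotein lipase and CD36 bring fatty acids to and into the cell, the FABP proteins carry them inside it, and osteopontin, galectin-3, GPNMB and CD9 are commonly raised together with them in macrophages of damaged tissue and tumours.

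Sequencing gave 72148493 unique molecular identifiers (UMIs, each 1 counted RNA molecule) over 10149 barcodes under anti-PD-1 and 67520433 over 9683 under isotype. The filters left 9701 cells (anti-PD-1) and 9278 cells (isotype), whose median depth was 6301 UMIs (anti-PD-1) and 6113 UMIs (isotype). A set of 140 barcode sequences occurred in both libraries; 127 were kept in both, and 14 of those were given the same type. Cells were typed one by one from markers that include none of the 10 genes, and a type's name below means cells that resemble it in those markers. The macrophage types are C1q macrophages (781 anti-PD-1 and 836 isotype cells), Arg1 macrophages (953 anti-PD-1, 1254 isotype) and Cxcl9 macrophages, which carry interferon-induced genes (863 anti-PD-1, 354 isotype). The monocytes are classical (1332 anti-PD-1, 1053 isotype) or non-classical (358 anti-PD-1, 291 isotype). The dendritic cells are cDC1 (148 anti-PD-1, 119 isotype), cDC2 (278 anti-PD-1, 301 isotype), migratory (148 anti-PD-1, 179 isotype) and plasmacytoid (33 anti-PD-1, 52 isotype). Of the markers themselves, Arg1 had a UMI in 93.5% (anti-PD-1) and 95.5% (isotype) of Arg1 macrophages, Gbp2 in 95.9% (anti-PD-1) and 97.2% (isotype) of Cxcl9 macrophages, Ace in 91.9% (anti-PD-1) and 90.7% (isotype) of non-classical monocytes and Ccr7 in 99.3% (anti-PD-1) and 98.3% (isotype) of migratory dendritic cells. The 7 hepatocyte and hepatoma markers summed to at most 1.80 counts per 1e+06 UMIs (CPM) under anti-PD-1 and at most 1.43 CPM under isotype in the macrophage, classical and non-classical monocyte, cDC1, cDC2 and migratory types, with Alb at 0 in each. The 5 Kupffer cell markers, of the liver's resident macrophages, summed to 16.9 CPM (anti-PD-1) and 9.33 CPM (isotype) in C1q macrophages and to 0 CPM (anti-PD-1) and 0.67 CPM (isotype) in Arg1 macrophages.

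Levels below are CPM of all UMIs of a type in a library. The 10 genes did not share 1 pattern over the types. In both libraries 7 of them had their highest level in a macrophage type, namely Apoe and Trem2 in C1q macrophages, Gpnmb, Spp1, Cd9 and Lgals3 in Arg1 macrophages and Lpl in Cxcl9 macrophages. The other 3 peaked elsewhere: Cd36 in cDC1, Fabp4 in non-classical monocytes and Fabp5 in migratory dendritic cells. This order over 9 types is a description, with the spread between the libraries as its only measure of error. The share of all genes with their highest level in a macrophage type was not calculated, so 7 of 10 has no comparison.

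**Figure D1:**
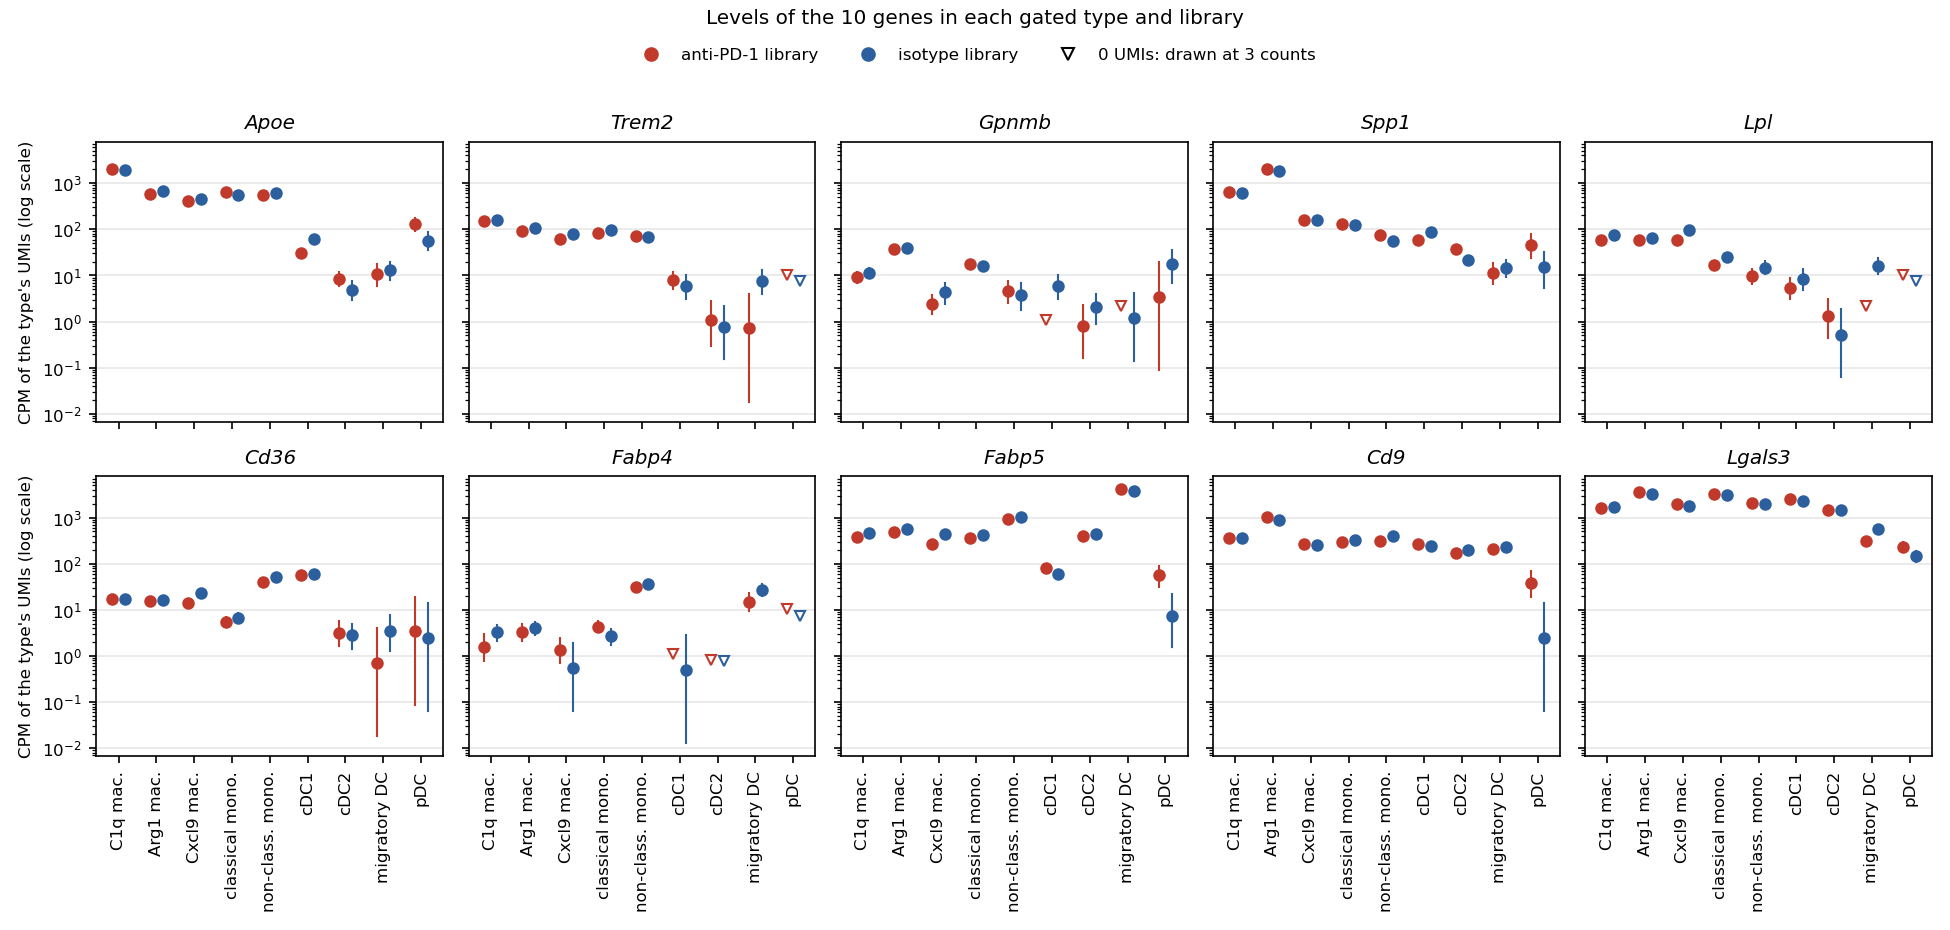
Level of each of the 10 genes (CPM of the type's UMIs, log axis) in 9 gated types, with the anti-PD-1 library in red left of the isotype library in blue and bars for the 95% counting interval; a triangle stands for 0 UMIs and is drawn at 3 counts. Apoe and Trem2 are highest in C1q macrophages, Spp1 and Gpnmb in Arg1 macrophages, Fabp4 in non-classical monocytes and Fabp5 in migratory dendritic cells.

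Trem2 (ENSMUSG00000023992, chromosome 17, 48346401 to 48354147, mm10) and Apoe (ENSMUSG00000002985, chromosome 7, 19696109 to 19699188), receptor and ligand, were both highest in C1q macrophages. Apoe had 2068 CPM (anti-PD-1) and 1903 CPM (isotype) there, which is 3.15 times (anti-PD-1) and 3.45 times (isotype) the level of classical monocytes. Arg1 macrophages followed with 583 CPM (anti-PD-1) and 677 CPM (isotype), classical monocytes with 657 CPM (anti-PD-1) and 551 CPM (isotype) and non-classical monocytes with 563 CPM (anti-PD-1) and 610 CPM (isotype), and these 3 could not be ordered, since their ranges over the libraries overlap. Cxcl9 macrophages had 409 CPM (anti-PD-1) and 460 CPM (isotype). Dendritic cells lay lower. Plasmacytoid ones had 129 CPM (anti-PD-1) and 57.0 CPM (isotype), cDC1 30.3 CPM (anti-PD-1) and 61.4 CPM (isotype), and cDC2, the lowest type, 8.53 CPM (anti-PD-1) and 4.84 CPM (isotype).

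Trem2 had 155 CPM (anti-PD-1) and 157 CPM (isotype) in C1q macrophages, 92.6 CPM (anti-PD-1) and 105 CPM (isotype) in Arg1 macrophages, 84.6 CPM (anti-PD-1) and 98.0 CPM (isotype) in classical monocytes, 63.0 CPM (anti-PD-1) and 77.9 CPM (isotype) in Cxcl9 macrophages and 71.8 CPM (anti-PD-1) and 67.4 CPM (isotype) in non-classical monocytes. The second and the third of these overlap, as do the fourth and the fifth. Trem2 had 4 UMIs (anti-PD-1) and 3 UMIs (isotype) in cDC2, and plasmacytoid dendritic cells had 0 UMIs in both libraries, where 3 counts correspond to 10.5 CPM (anti-PD-1) and 7.44 CPM (isotype). After each cell was thinned to 2000 UMIs, Trem2 was found in 26.1% of C1q macrophages (interval 23.1 to 29.4) under anti-PD-1 and in 26.1% (23.2 to 29.3) under isotype, and Apoe in 67.2% (anti-PD-1) and 64.1% (isotype). The unthinned shares for Trem2 were 56.1% (anti-PD-1) and 62.1% (isotype) at median depths of 7500 UMIs (anti-PD-1) and 9019 UMIs (isotype). T and NK cells, which should lack both genes, gave thinned backgrounds of 0.172% (anti-PD-1) and 0.206% (isotype) for Trem2 and of 1.21% (anti-PD-1) and 0.206% (isotype) for Apoe, at median depths of 7423 UMIs (anti-PD-1) and 6447 UMIs (isotype). B and plasma cells had Apoe in 30.2% (anti-PD-1, 13 of 43) and 33.3% (isotype, 15 of 45) of thinned cells, above the T and NK cells.

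The sequence around the start of these genes is shown for the members that set apart C1q and Arg1 macrophages. RefSeq windows (GRCm38.p6) of 250 bases before to 50 after the start were found for 7 of the 10 genes, and capitals mark the letters of 4 motifs searched on both strands: TGANTCA (AP-1), CACGTG (the E-box of MiT family factors), GAGGAA (the core bound by PU.1) and AGGTCA (a nuclear receptor half-site). Over all 32851 windows of this length, 7.81%, 7.15%, 28.3% and 16.3% hold at least 1 match of these motifs in the order named. The Apoe window lies at chr7:19699139-19699438 on the minus strand and the Trem2 window at chr17:48346151-48346450 on the plus strand.
Apoe: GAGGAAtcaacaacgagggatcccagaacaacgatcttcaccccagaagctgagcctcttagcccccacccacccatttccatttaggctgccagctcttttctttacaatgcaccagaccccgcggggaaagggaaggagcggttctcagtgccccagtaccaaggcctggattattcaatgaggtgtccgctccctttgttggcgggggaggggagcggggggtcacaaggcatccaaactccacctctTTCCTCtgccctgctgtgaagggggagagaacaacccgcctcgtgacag
Trem2: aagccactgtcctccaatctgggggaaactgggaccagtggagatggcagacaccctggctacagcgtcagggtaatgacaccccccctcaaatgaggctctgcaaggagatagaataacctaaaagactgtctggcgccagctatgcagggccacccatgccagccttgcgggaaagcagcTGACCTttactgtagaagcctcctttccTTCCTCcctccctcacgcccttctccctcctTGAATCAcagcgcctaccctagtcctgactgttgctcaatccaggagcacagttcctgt
The Trem2 window holds 1 match each to the AP-1 motif, starting at base -9 from the start, to the PU.1 core at -40 and to the half-site at -68. The Apoe window shown holds 2 matches to the PU.1 core and none to the other 3 motifs. It is the first of 3 windows of that gene in the table, and the other two hold 0 and 1 matches to the PU.1 core. Matching letters describe the sequence and are not evidence of binding.

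Spp1, Gpnmb, Cd9 and Lgals3 were highest in Arg1 macrophages. Spp1 (ENSMUSG00000029304, chromosome 5, 104435118 to 104441050), which encodes the secreted protein osteopontin, had 2058 CPM (anti-PD-1) and 1869 CPM (isotype), 15.5 times (anti-PD-1) and 14.8 times (isotype) the level of classical monocytes. C1q macrophages had 630 CPM (anti-PD-1) and 609 CPM (isotype) of Spp1, Cxcl9 macrophages 163 CPM (anti-PD-1) and 156 CPM (isotype), and classical monocytes 133 CPM (anti-PD-1) and 126 CPM (isotype). None of these ranges overlap. Thinned Arg1 macrophages had a UMI of Spp1 in 62.4% (anti-PD-1, 59.2 to 65.5) and 55.2% (isotype, 52.3 to 57.9) of cells. Their unthinned shares were 75.1% (anti-PD-1) and 67.5% (isotype). Thinned T and NK cells had it in 2.59% (anti-PD-1) and 2.26% (isotype). Among all T and NK cells, 6 cells (anti-PD-1) held 76.0% of the Spp1 UMIs and 5 cells (isotype) 75.5%. Whether these UMIs are background or the cells' own transcript was not tested. Few cells carry much of the transcript: 1% of the Arg1 macrophages held 12.5% (anti-PD-1) and 15.8% (isotype) of their Spp1 UMIs, and 1% of the non-classical monocytes 71.9% (anti-PD-1) and 68.7% (isotype).

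Gpnmb (ENSMUSG00000029816, chromosome 6, 49036546 to 49070929), a transmembrane glycoprotein of lysosomes and the cell surface, had 36.7 CPM (anti-PD-1) and 38.7 CPM (isotype) in Arg1 macrophages, 17.8 CPM (anti-PD-1) and 15.9 CPM (isotype) in classical monocytes and 9.08 CPM (anti-PD-1) and 11.6 CPM (isotype) in C1q macrophages. It was found in only 5.44% (anti-PD-1, 51 of 938) and 5.48% (isotype, 68 of 1242) of thinned Arg1 macrophages, against 0.172% (anti-PD-1) and 0.412% (isotype) of T and NK cells. The Spp1 window lies at chr5:104434861-104435160 and the Gpnmb window at chr6:49036268-49036567, both on the plus strand, and they are shown since these genes share their highest type.
Spp1: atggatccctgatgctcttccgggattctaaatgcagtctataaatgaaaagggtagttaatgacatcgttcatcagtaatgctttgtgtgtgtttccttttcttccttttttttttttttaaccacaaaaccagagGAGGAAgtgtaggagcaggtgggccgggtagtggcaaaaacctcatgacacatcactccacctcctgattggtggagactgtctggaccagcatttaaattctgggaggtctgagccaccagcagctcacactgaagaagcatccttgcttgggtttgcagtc
Gpnmb: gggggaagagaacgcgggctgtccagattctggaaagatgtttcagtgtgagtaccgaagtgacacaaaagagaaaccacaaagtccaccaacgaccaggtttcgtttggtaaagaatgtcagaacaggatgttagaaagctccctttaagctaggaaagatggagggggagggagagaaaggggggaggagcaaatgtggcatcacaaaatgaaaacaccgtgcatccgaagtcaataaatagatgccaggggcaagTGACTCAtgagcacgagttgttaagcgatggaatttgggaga
The Gpnmb window has 1 match to the AP-1 motif at base 9 and none to the other 3 motifs. The Spp1 window shown, the first of 2 of that gene, has 1 match to the PU.1 core at -113 and none to AP-1, and the other holds none of the 4 motifs.

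Cd9 (ENSMUSG00000030342, chromosome 6, 125460266 to 125494791), a tetraspanin of the cell surface, had 1029 CPM (anti-PD-1) and 878 CPM (isotype) in Arg1 macrophages and 366 CPM (anti-PD-1) and 367 CPM (isotype) in C1q macrophages. The remaining macrophages, monocytes and dendritic cells other than the plasmacytoid ones lay between 174 CPM (anti-PD-1) and 397 CPM (isotype). Neutrophils had more, 1421 CPM (anti-PD-1) and 1437 CPM (isotype). The genes Gm28809 and Gm26728 overlap Cd9 on the opposite strand, and reads of these genes and of Cd9 can be told apart only where counting used strand. Lgals3 (ENSMUSG00000050335, chromosome 14, 47367751 to 47386160), which encodes the sugar-binding protein galectin-3, had 3633 CPM (anti-PD-1) and 3199 CPM (isotype) in Arg1 macrophages and 3235 CPM (anti-PD-1) and 3053 CPM (isotype) in classical monocytes, and these ranges overlap. cDC1 followed with 2590 CPM (anti-PD-1) and 2256 CPM (isotype), and C1q macrophages, with 1645 CPM (anti-PD-1) and 1722 CPM (isotype), were sixth of the 9 types. T and NK cells had Lgals3 in 34.7% (anti-PD-1) and 24.7% (isotype) of thinned cells, the highest share of the 10 genes in those cells. Whether this is background or their own transcript was not tested.

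The genes of lipid uptake and transport were divided over the types. Lpl (ENSMUSG00000015568, chromosome 8, 68880491 to 68907448), the enzyme that frees fatty acids from lipoproteins, was shared by the macrophage types, with 59.4 CPM (anti-PD-1) and 98.5 CPM (isotype) in Cxcl9 macrophages, 58.3 CPM (anti-PD-1) and 75.0 CPM (isotype) in C1q macrophages and 57.9 CPM (anti-PD-1) and 64.1 CPM (isotype) in Arg1 macrophages. Their ranges overlap, while classical monocytes lay lower with 17.3 CPM (anti-PD-1) and 25.5 CPM (isotype). Cd36 (ENSMUSG00000002944, chromosome 5, 17781690 to 17888801), a receptor for long-chain fatty acids and oxidised lipoproteins, had 56.9 CPM (anti-PD-1) and 59.4 CPM (isotype) in cDC1, 39.5 CPM (anti-PD-1) and 51.8 CPM (isotype) in non-classical monocytes and 14.4 to 23.3 CPM over both libraries in the macrophage types. Thinned cDC1 had Cd36 in 5.44% (anti-PD-1, 8 of 147) and 11.1% (isotype, 13 of 117) of cells, and unthinned ones in 47.3% (anti-PD-1) and 42.0% (isotype), at median depths of 18636 UMIs (anti-PD-1) and 16323 UMIs (isotype). Thinned non-classical monocytes had it in 7.02% (anti-PD-1, 25 of 356) and 11.0% (isotype, 32 of 291), so these shares did not set cDC1 apart.

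Fabp4 and Fabp5 encode fatty acid carrier proteins and lie on chromosome 3, Fabp5 (ENSMUSG00000027533) at 10012548 to 10016607 and Fabp4 (ENSMUSG00000062515) at 10204088 to 10208576, separated by 187481 bases with 4 protein-coding genes between them. Fabp4 was a gene of few cells. Non-classical monocytes had 32.0 CPM (anti-PD-1) and 35.4 CPM (isotype) of it and migratory dendritic cells 14.9 CPM (anti-PD-1) and 27.5 CPM (isotype), while no macrophage type exceeded 4.01 CPM and cDC2 had 0 UMIs in both libraries (3 counts correspond to 0.80 CPM (anti-PD-1) and 0.76 CPM (isotype)). It was found in 7.30% (anti-PD-1, 26 of 356) and 6.19% (isotype, 18 of 291) of thinned non-classical monocytes and in 0 of 580 (anti-PD-1) and 0 of 486 (isotype) T and NK cells, where the intervals reach 0.634% (anti-PD-1) and 0.756% (isotype). Fabp5 was broad: it had 4080 CPM (anti-PD-1) and 3779 CPM (isotype) in migratory dendritic cells, 918 CPM (anti-PD-1) and 1007 CPM (isotype) in non-classical monocytes, 475 CPM (anti-PD-1) and 565 CPM (isotype) in Arg1 macrophages, 405 CPM (anti-PD-1) and 436 CPM (isotype) in cDC2 and 371 CPM (anti-PD-1) and 454 CPM (isotype) in C1q macrophages. The thinned shares in migratory dendritic cells were 91.8% (anti-PD-1) and 86.5% (isotype), against 14.5% (anti-PD-1) and 14.8% (isotype) in T and NK cells.

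Across the 18 points of 9 types in 2 libraries, Pearson's r of log2(CPM + 10) was 0.93 between Apoe and Trem2, 0.87 between Trem2 and Lpl, 0.84 between Cd9 and Lgals3, 0.81 between Spp1 and Lpl, 0.74 between Spp1 and Gpnmb and 0.69 between Fabp4 and Fabp5. It was 0.01 between Apoe and Fabp5. Points of 1 library share its preparation and both points of a type rest on the same markers, so these values describe the pattern and carry no p. Among 9577 genes, Msr1 (0.98), the scavenger receptor A, was among those most like Trem2. Those most like Apoe were Cd84 (0.96) and Cebpa (0.94), like Spp1 F7 (0.96) and Gm36172 (0.95), like Gpnmb Rusc2 (0.905) and Lamc1 (0.88), like Lpl Hsbp1 (0.96) and Ankrd66 (0.94), and like Cd9 Pgk1 (0.95) and Pdlim7 (0.94). For Lgals3 they were Eif4ebp1 (0.96) and Eps8 (0.94), for Fabp5 Arhgap31 (0.95) and Adora2a (0.94), for Fabp4 Cep85l (0.89) and Cyth3 (0.89), and for Cd36 Cdk14 (0.89) and Trpm2 (0.88).

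Single cells with several of the 10 genes were most frequent among Arg1 and C1q macrophages. The counts below rise with the share of cells that have each single gene. Counts for genes found independently of each other were not calculated, so these counts do not show linked expression. Arg1 macrophages had UMIs of 3.42 (anti-PD-1) and 3.38 (isotype) of the 10 genes per thinned cell on average and C1q macrophages of 2.94 (anti-PD-1) and 3.03 (isotype), against 2.59 (anti-PD-1) and 2.81 (isotype) in non-classical monocytes, 1.41 (anti-PD-1) and 1.54 (isotype) in cDC2 and 0.648 (anti-PD-1) and 0.564 (isotype) in T and NK cells. At least 5 of the 10 were found in 15.8% (anti-PD-1, 148 of 938) and 17.1% (isotype, 213 of 1242) of Arg1 macrophages, in 9.62% (anti-PD-1, 74 of 769) and 14.0% (isotype, 116 of 827) of C1q macrophages and in 0% of cDC2.

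**Figure D2:**
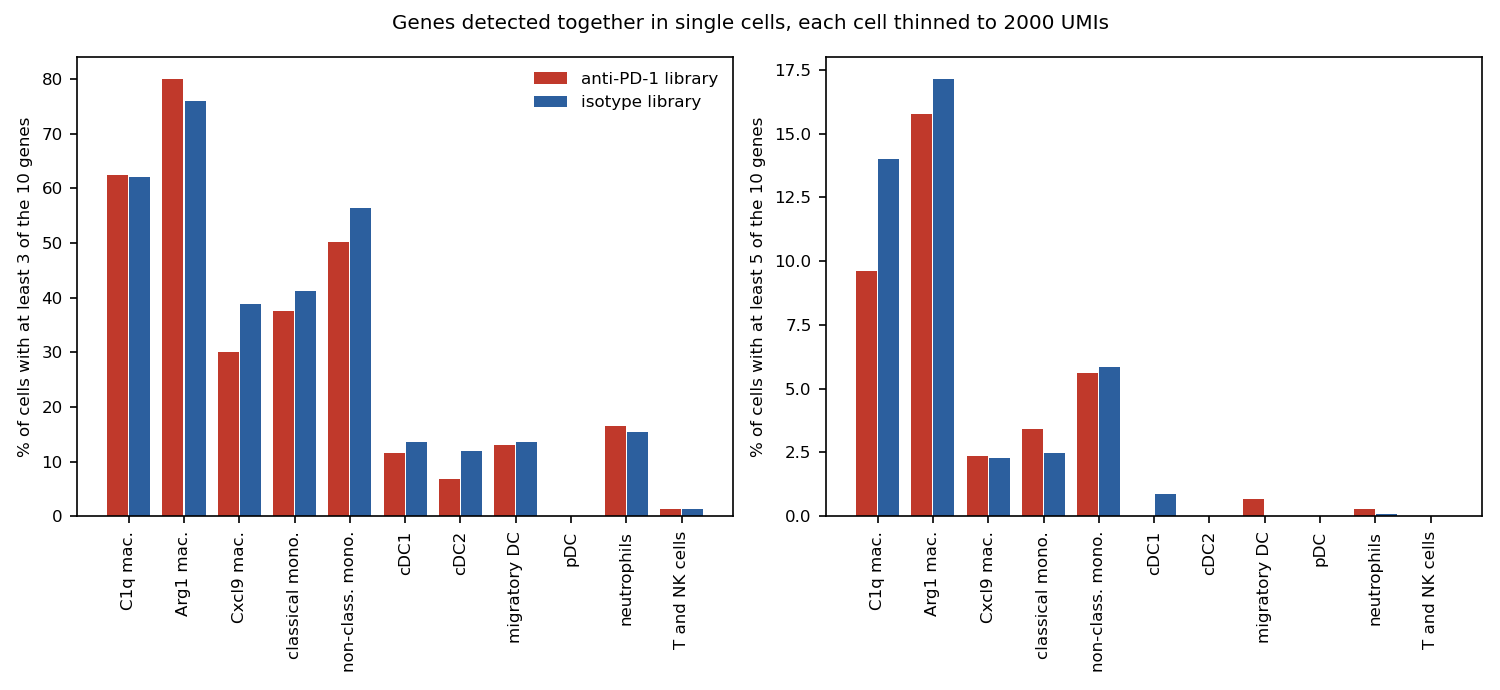
Share of cells with UMIs of at least 3 (left) or at least 5 (right) of the 10 genes after thinning each cell to 2000 UMIs, by type, with the anti-PD-1 library in red left of the isotype library in blue. Arg1 macrophages reach 80.1% (anti-PD-1) and 76.1% (isotype) for at least 3 genes, and T and NK cells stay at 1.38% (anti-PD-1) and 1.23% (isotype).

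Selected pairs of the lipid-associated macrophage genes are shown here by how often they met in the same cells. How many of the remaining pairs differed in this way is not reported, and no share for gene pairs in general is given. The pairs shown therefore have no comparison and do not show a link particular to these genes. Among classical monocytes, cells with Spp1 had Cd9 in 63.5% (anti-PD-1, interval 54.9 to 71.6) and 65.1% (isotype, 53.8 to 75.2), and cells without Spp1 in 26.1% (anti-PD-1) and 29.1% (isotype). Among C1q macrophages, cells with Spp1 had Cd9 in 58.8% (anti-PD-1) and 57.7% (isotype), and cells without it in 33.2% (anti-PD-1) and 39.5% (isotype). Trem2 and Apoe met in the same type in a milder way, with Apoe in 77.1% (anti-PD-1) and 72.7% (isotype) of C1q macrophages with Trem2 and in 63.7% (anti-PD-1) and 61.0% (isotype) of those without. In the pooled monocytes and macrophages, the cells with Fabp4 (46 anti-PD-1, 45 isotype) had Fabp5 in 69.6% (anti-PD-1) and 71.1% (isotype), and cells without Fabp4 in 33.8% (anti-PD-1) and 37.7% (isotype). Inside the non-classical monocytes of the anti-PD-1 library the share was 65.4% (17 of 26) with Fabp4 and 57.3% without it, with overlapping intervals. All these shares are from thinned cells, and cells of a library are not replicates, so they describe these libraries.

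Between the treatments, 8 of the 10 genes had a lower level under anti-PD-1 when all monocytes and macrophages were pooled, and 1 had a higher one, judged by whether the counting interval of the log2 ratio (anti-PD-1 over isotype) lay below or above 0. Of 11151 genes tested, 8.42% lay below 0 and 29.4% above. Those genes needed only 50 UMIs over both libraries. The 10 genes ranged from Fabp4, with 230 UMIs (anti-PD-1) and 207 UMIs (isotype), to Lgals3, with 114270 UMIs (anti-PD-1) and 104302 UMIs (isotype). More UMIs narrow the interval, and genes of like depth were not compared, here or in the shares by interval below. The median of the 10 ratios was -0.24, and that of all genes tested 0.07. The ratios were -0.43 for Lpl (38.02 CPM anti-PD-1, 51.3 CPM isotype), -0.37 for Cd36 (13.6 CPM anti-PD-1, 17.6 CPM isotype), -0.34 for Spp1 (566 CPM anti-PD-1, 713 CPM isotype), -0.28 for Gpnmb (16.5 CPM anti-PD-1, 20.1 CPM isotype), -0.28 for Fabp5 (446 CPM anti-PD-1, 540 CPM isotype), -0.21 for Trem2 (88.0 CPM anti-PD-1, 102 CPM isotype), -0.14 for Cd9 (473 CPM anti-PD-1, 522 CPM isotype) and -0.10 for Apoe (793 CPM anti-PD-1, 852 CPM isotype). Lgals3 was at 0.05 (2655 CPM anti-PD-1, 2571 CPM isotype; -0.014 with TMM scaling), and Fabp4 at 0.07 with an interval of -0.21 to 0.34. No gene of the 10 reached 1.5-fold, which 1.30% of all genes did downwards and 2.45% upwards.

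The pooled values mix types whose shares differ. Arg1 macrophages made up 18.6% of the anti-PD-1 pool and 27.4% of the isotype pool, and Cxcl9 macrophages 16.8% (anti-PD-1) and 7.73% (isotype). These shares are given as weights and not as cell numbers, because genes that set the Cxcl9 gate differ in level between the libraries, Gbp2 for example with 1475 CPM (anti-PD-1) and 1073 CPM (isotype) inside that gate. When both libraries were given the same make-up of types, the ratio was 0.10 for Lgals3, 0.10 for Fabp4, 0.06 for Spp1, 0.05 for Cd9, 0.02 for Apoe and -0.04 for Gpnmb. It was -0.13 for Trem2, -0.23 for Fabp5, -0.38 for Cd36 and -0.45 for Lpl. No interval was calculated for this make-up, so the width of the pool's interval was moved onto each ratio. Taken so, the intervals of Fabp4, Apoe and Gpnmb held 0. The ratio of Spp1 was below 0 in the pool and between 0.05 and 0.41 within the 5 monocyte and macrophage types, with the interval above 0 in Arg1 macrophages and non-classical monocytes. That direction depended on the processing: the ratio was below 0 under 4 of 10 alternatives in C1q macrophages, 5 of 10 in Cxcl9 macrophages, and 1 of 10, by clusters, in Arg1 macrophages (-0.15) and in non-classical monocytes (-0.36). In the pool Arg1 macrophages held 60.6% (anti-PD-1) and 67.6% (isotype) of its UMIs. Of 6783 genes tested in all 5 types, 16.4% had a ratio above 0 in all of them.

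**Figure D3:**
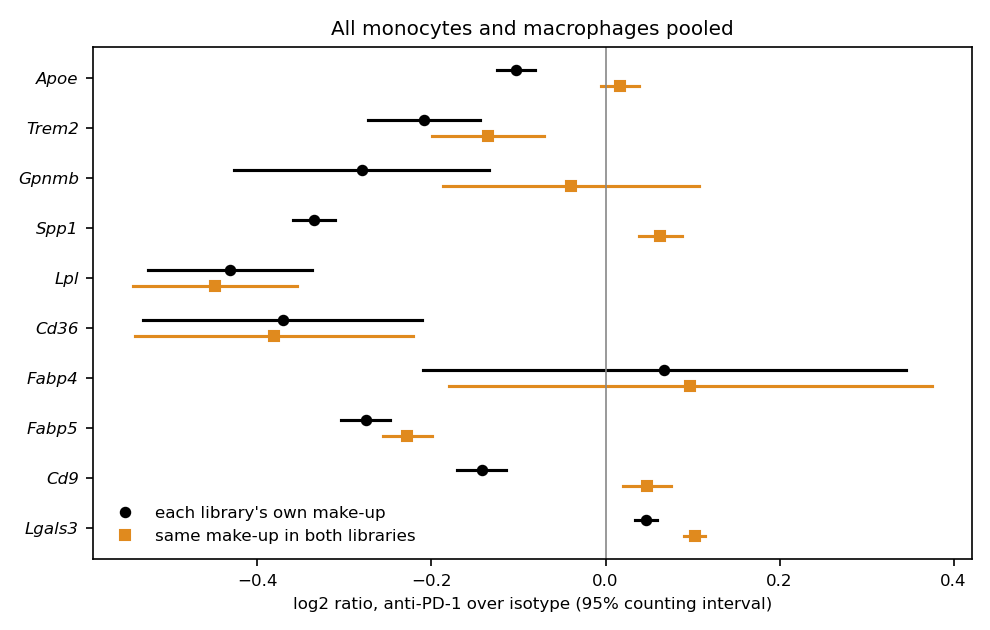
Log2 ratio of each gene, anti-PD-1 over isotype, in all monocytes and macrophages with each library's own make-up of types (black circles) and with the same make-up in both (orange squares), with 95% counting intervals. The orange squares carry the width of the black intervals, since none was calculated for them. Spp1, Cd9 and Apoe cross 0 between the 2 calculations, while Lpl, Cd36, Fabp5 and Trem2 stay below it.

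Lpl and Fabp5 had ratios below 0 in each of the 5 types. Fabp5 had ratios of -0.29 in C1q macrophages, -0.25 in Arg1 macrophages, -0.73 in Cxcl9 macrophages, -0.17 in classical and -0.13 in non-classical monocytes, with all 5 intervals below 0. Lpl had -0.36 in C1q macrophages, -0.73 in Cxcl9 macrophages and -0.56 in classical monocytes, with intervals below 0, and -0.14 (-0.33 to 0.03) in Arg1 macrophages and -0.62 (-1.35 to 0.11) in non-classical monocytes. Of the 6783 genes, 5.34% had ratios below 0 in all 5 types. Lpl stayed below 0 in every type under all 10 alternatives, and Fabp5 in all but 1 case, at 0.04 in non-classical monocytes when clusters replaced the gates. Over these alternatives Lpl lay between -0.62 and -0.17 in classical monocytes and between -0.45 and -0.0049 in Arg1 macrophages. The cluster named non-classical monocytes held few cells gated alike, 27.7%.

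In Cxcl9 macrophages 3 of 8 genes tested were at least 1.5-fold lower in the anti-PD-1 library, where 1.92% of all genes were: Lpl with 59.4 CPM (anti-PD-1) and 98.5 CPM (isotype), Cd36 with 14.4 CPM (anti-PD-1) and 23.3 CPM (isotype) (-0.70) and Fabp5 with 264 CPM (anti-PD-1) and 438 CPM (isotype). By the interval, 5 were lower and 1 higher, against 6.81% of all genes lower and 11.7% higher. The share of thinned Cxcl9 macrophages with Fabp5 was 25.3% (anti-PD-1, 22.4 to 28.4) and 36.1% (isotype, 31.1 to 41.3). For Lpl it was 8.47% (anti-PD-1, 6.69 to 10.5) and 9.38% (isotype, 6.54 to 12.9), and these intervals overlap. The 9 neutrophil markers summed to 295 CPM (anti-PD-1) and 175 CPM (isotype) in these cells, the 6 cDC2 markers to 72.0 CPM (anti-PD-1) and 108 CPM (isotype) and the 4 proliferation markers to 36.9 CPM (anti-PD-1) and 19.8 CPM (isotype). Their part in the result was not tested. The anti-PD-1 library held 863 such cells, 18.2% of them near the border of the gate, and the isotype library 354 with 28.0% near it. Over the 10 alternatives the ratios lay between -0.82 and -0.45 for Lpl, -1.09 and -0.27 for Cd36 and -0.86 and -0.64 for Fabp5.

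**Figure D4:**
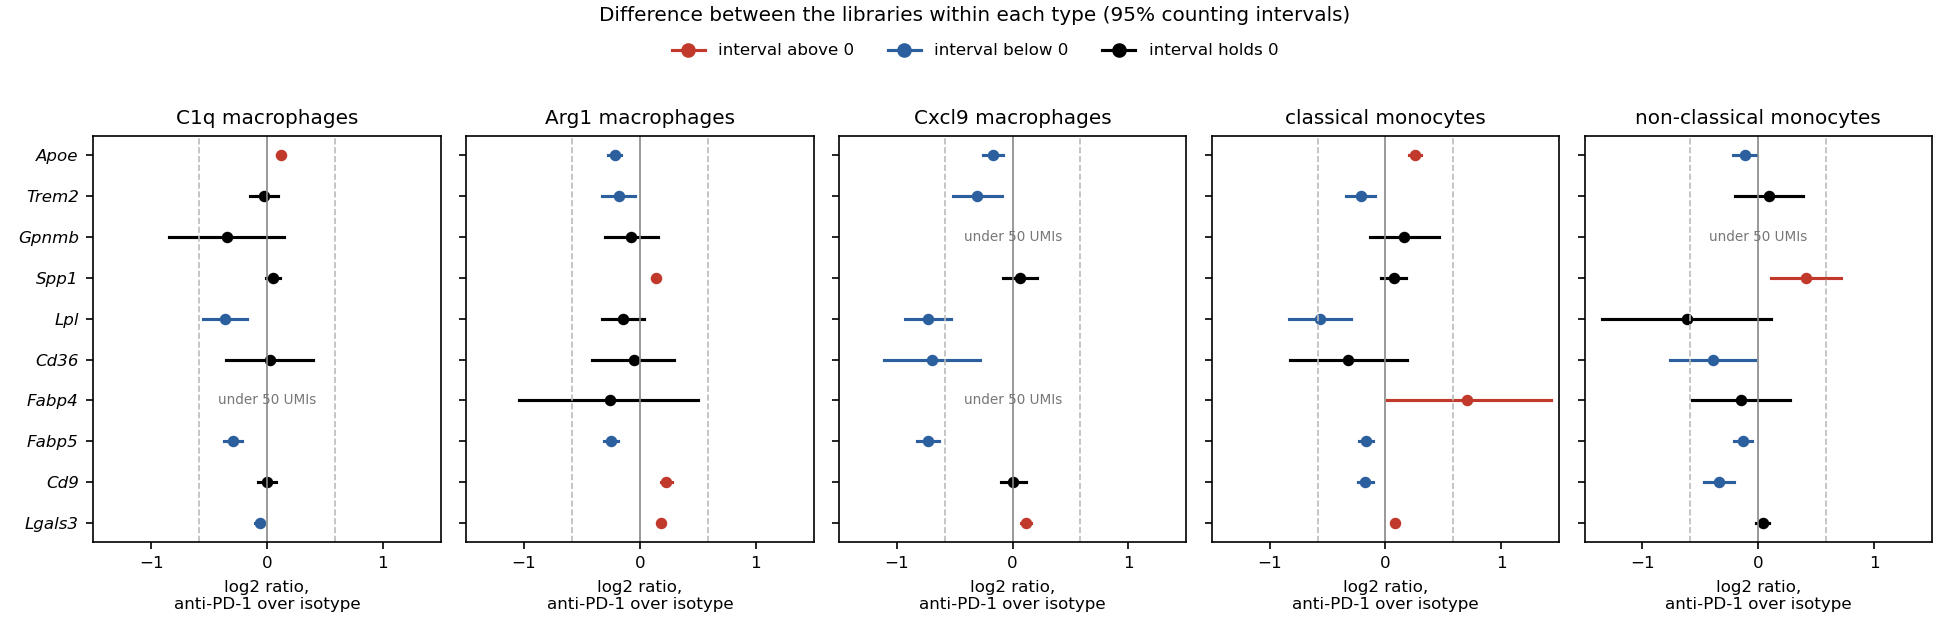
Log2 ratio of each gene, anti-PD-1 over isotype, within each of 5 monocyte and macrophage types, with 95% counting intervals (blue below 0, red above 0, black holding 0) and dashed lines at 1.5-fold. Lpl and Fabp5 lie below 0 in all 5 panels. Spp1 lies above 0 in each, with an interval that excludes 0 in 2 of them.

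The other genes went different ways in different types. Arg1 macrophages had Cd9 (0.23), Lgals3 (0.18) and Spp1 (0.14) higher, and Apoe (-0.22), Fabp5 (-0.25) and Trem2 (-0.18) lower, so 3 lay above 0 and 3 below where 11.8% of all genes lay above and 7.68% below. C1q macrophages had 1 gene above, Apoe at 0.12, and 3 below, Lpl, Fabp5 and Lgals3 (-0.07), against 12.0% of all genes above and 5.93% below. The ratio of Trem2 there was -0.02 with an interval of -0.15 to 0.10. Classical monocytes had Apoe (0.25), Lgals3 (0.08) and Fabp4 (0.70) above 0, and Trem2 (-0.21), Fabp5, Lpl and Cd9 (-0.17) below, against 15.3% of all genes above and 5.70% below. After thinning, only the interval of Fabp5 among those 4 lay below 0, and all 4 ratios were below 0 under each of the 10 alternatives. Neutrophil markers summed to 741 CPM (anti-PD-1) and 1307 CPM (isotype) in those monocytes, and their part in these values was not tested. The 0.70 of Fabp4 rests on 54 UMIs (anti-PD-1) and 27 UMIs (isotype) and was -0.58 by clusters, and the 0.14 of Spp1 in Arg1 macrophages was -0.15 by clusters. After thinning, Trem2 was at 0.02 in Arg1 macrophages and at 0.07 in Cxcl9 macrophages, where it was -0.31 with all UMIs. Non-classical monocytes had Cd9 (-0.34), Cd36 (-0.39), Fabp5 and Apoe (-0.12) below and Spp1 (0.41) above 0, against 4.89% of all genes below and 9.99% above, and by clusters Spp1 was -0.36 and Apoe 0.18. Of the Spp1 UMIs of these monocytes under anti-PD-1, 4 cells held 71.9%. The 7 T and NK markers summed to 18.4 CPM (anti-PD-1) and 1.52 CPM (isotype) there, the 4 proliferation markers to 34.9 CPM (anti-PD-1) and 7.24 CPM (isotype) and the 6 cDC2 markers to 33.0 CPM (anti-PD-1) and 17.9 CPM (isotype), and their part was not tested.

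In dendritic cells the counts were small, and few of the genes could be compared. Fabp5 in migratory dendritic cells, its highest type, was at 0.11, and at -0.06 without cells near a border. Lgals3 had 311 CPM (anti-PD-1) and 558 CPM (isotype) there (-0.85, over alternatives -0.87 to -0.39), while the 9 neutrophil markers summed to 546 CPM (anti-PD-1) and 2033 CPM (isotype) in the same cells, and their part in that difference was not tested. By the interval 1 of the 4 tested genes was higher and 2 were lower, against 9.01% of all genes higher and 8.01% lower. cDC1 had Apoe at 30.3 CPM (anti-PD-1) and 61.4 CPM (isotype) (-1.02 on 84 UMIs (anti-PD-1) and 123 UMIs (isotype), over alternatives -2.17 to -0.05). Spp1 was at 57.6 CPM (anti-PD-1) and 88.4 CPM (isotype) there (-0.62, over alternatives -0.72 to -0.30), and 1 isotype cell held 51 of its 177 UMIs. In cDC1 2 genes of 6 were lower and 2 higher, against 5.04% of all genes lower and 13.6% higher. Neutrophil markers summed to 35.3 CPM (anti-PD-1) and 128 CPM (isotype) in cDC1, and their part was not tested. Cd36, highest in cDC1, was at -0.06 (-0.41 to 0.29). In cDC2, 2 of 5 were lower and 1, Spp1 (37.3 CPM anti-PD-1, 21.9 CPM isotype), was higher, against 5.02% of all genes lower and 14.9% higher. In the anti-PD-1 library 1 cell held 66 of those 140 Spp1 UMIs, and the ratio of 0.77 was 0.21 without the cell with most UMIs. Neutrophil markers summed to 37.8 CPM (anti-PD-1) and 179 CPM (isotype) in cDC2 and T and NK markers to 31.7 CPM (anti-PD-1) and 4.84 CPM (isotype), and their part was not tested. A single cell could make a value here: 1 isotype cell held 25 of the 28 Lpl UMIs of migratory dendritic cells, whose anti-PD-1 counterpart had 0, and 1 isotype neutrophil held 59 of 64 Fabp4 UMIs of its type.

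In the wider pathway, genes lay on both sides of 0. Of 58 further genes in 6 lists, 55 could be compared in the pooled monocytes and macrophages, where 14 lay below 0 and 21 above, with 20 intervals holding 0, against 8.42% of all genes below and 29.4% above. These pooled values carry the difference in make-up too. TREM2 adaptor and signalling genes had 4 above and 1 below of 6: Tyrobp, the adaptor, was at 0.05 (3627 CPM anti-PD-1, 3498 CPM isotype), Syk, the kinase it recruits, at 0.10, and Hcst, an alternative adaptor, at -0.30 (47.1 CPM anti-PD-1, 57.8 CPM isotype). Lipid uptake and ApoE receptors had 2 above and 1 below of 8, with the receptor tyrosine kinase Axl at -0.32 (64.5 CPM anti-PD-1, 80.4 CPM isotype) and Lrp1, an ApoE receptor, at 0.01. Cholesterol efflux and LXR genes had 3 above and 4 below of 10. Pltp, the phospholipid transfer protein, was at -0.49 (47.1 CPM anti-PD-1, 65.9 CPM isotype), Abca1, the cholesterol exporter, at -0.30 (-0.54 to 0.35 over the 5 types), and Nr1h3, which encodes the sterol receptor LXRα, at 0.36 (10.9 CPM anti-PD-1, 8.43 CPM isotype). Pltp lay below 0 in all 5 types, from -1.13 in Arg1 macrophages to -0.07.

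Lipid droplet, lysosomal lipid and fatty acid genes had 5 above and 2 below of 13, with Plin2, the coat protein of lipid droplets, at 0.14 (511 CPM anti-PD-1, 465 CPM isotype), Npc2, which moves cholesterol out of lysosomes, at 0.15, and Hilpda, an inhibitor of fat breakdown, at -0.14. Within the 5 types Hilpda lay between -0.18 and 0.30, with 2 intervals below 0 and 2 above, and Arg1 macrophages had 1957 CPM (anti-PD-1) and 1590 CPM (isotype). Plin2 was above 0 in all 5 types. Lpl was below 0 in each of them. The PPAR and MiT list had 4 above and 3 below of 11: Pparg, the regulator of Fabp4 and Cd36, had 2.83 CPM (anti-PD-1) and 2.64 CPM (isotype) (0.10, -0.28 to 0.49), Tfe3 was at 0.34, and the lysosomal genes Cd63 and Ctsl were at -0.28 and -0.20. Within the types Cd63 lay between -1.05 and 0.36, with 3 intervals below 0 and 1 above, and Ctsl between -0.17 and 0.05, with 1 interval below 0. The partners of osteopontin and galectin-3 had 3 above and 3 below of 7, with the osteopontin receptor Cd44 at -0.03 and Lgals3bp, a binding partner of galectin-3, at 0.36. List medians lay between -0.02 and 0.13, and the median of all genes was 0.07.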

How the data were processed

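The authors deposited UMI counts without normalisation, as a sparse gene-by-barcode matrix for each library. Per the file headers the counting software was Cell Ranger 5.0.1, whereas version 2.1.1, with build mm10, stands in the submitters' processing notes. Settings for calling cells: not given in the sources used here. Dense tables were not used.

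Cells with at least 500 UMIs, 200 genes and at most 10% mitochondrial UMIs were kept (10014 of 10149 anti-PD-1 and 9566 of 9683 isotype barcodes). Doublet scores came from scrublet (scanpy 1.11.5, expected rate 0.06). Its own threshold marked 0 cells, so scores above 0.25, a value known from earlier results, were removed (313 anti-PD-1, 288 isotype). Each cell was given the lineage with the highest marker score, needing at least 3 detected markers and a margin of 0.1, and monocytes and macrophages then the subtype with the highest score. Of the kept cells, 14.5% (anti-PD-1) and 15.8% (isotype) stayed untyped, and 8.75% (anti-PD-1) and 8.51% (isotype) were monocytes or macrophages of no subtype, counted in the pool only. The markers, the 10 genes and the 6 further lists were chosen with earlier results of these data known, and the scoring rule after the cells had been seen.

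UMIs were summed per type and library and scaled to CPM of that sum. Log2 ratios carry exact conditional binomial 95% intervals, and genes with at least 50 UMIs over both libraries were tested in this sense. The interval calculation was run on simulated counts with only the counting error that it assumes. That run therefore says nothing about counts held by few cells. Shares of cells come from thinning each cell to 2000 UMIs, with Clopper-Pearson intervals, which left out 110 (anti-PD-1) and 125 (isotype) monocytes and macrophages. Neither PCR nor cell-to-cell spread is covered by an interval. The same make-up weights each type by the mean of its 2 shares. Named genes are the 10, all genes of the lists, and for each of the 10 the 2 most alike by Pearson's r among genes with at least 200 UMIs, of which 1 is not reported here. Positions come from GENCODE vM21 and promoter windows from RefSeq. Python 3.11.15, numpy 2.4.6, scipy 1.17.1, R 4.3.3 and edgeR 4.0.16 (TMM factors only) were used. Alternatives were other mitochondrial limits (5% and 20%), at least 2000 UMIs per cell, doublets kept, each cell's CPM averaged, TMM scaling, thinning, leaving out the cell with most UMIs of a gene or cells near a border, clusters made without the 10 genes, and the same make-up.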

Additional observations from a re-analysis of the deposited data

Results flagged for a closer look

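In 3 genes the libraries differed in opposite directions in different types, with intervals that exclude 0 on both sides and a direction kept under all 10 alternatives in both types. Each type is 1 sum per library, and the difference between types was not tested. The share of all genes that would meet this rule was not calculated, so 3 of 10 has no comparison. Apoe was higher in the anti-PD-1 library in classical monocytes (0.25) and lower in Arg1 macrophages (-0.22), a distance of 0.47 on the log2 scale. Cd9 was higher in Arg1 macrophages (0.23) and lower in non-classical monocytes (-0.34), a distance of 0.57. Lgals3 was higher in Arg1 macrophages (0.18) and lower in C1q macrophages (-0.07), a distance of 0.25.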

How the results depend on the processing

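No paired analysis was possible because each treatment is 1 library and the groups share only the replicate number 1, and no replicate could be left out. Of 720 values of single genes under the alternatives, 593 lay within the counting interval of the reported value, and 17 changed sign where that interval excluded 0. The other 110 lay outside it; sign changes among these and the 593 are not counted here. For the 7 genes with their highest level in a macrophage type, the alternatives tracked only how many had it, not which genes or which type. By the interval, the count of genes lower in the pool was 4 with the same make-up instead of 8, and the count of higher ones was 3 with the same make-up and 0 with TMM scaling, with averaged CPM and with thinning, instead of 1. For the same make-up and averaged CPM, the width of the reported interval was moved onto the new value. Genes lower in classical monocytes numbered 1 after thinning instead of 4, with all 4 ratios still below 0. With the same make-up the pooled ratio was 0.017 for Apoe, 0.063 for Spp1 and 0.048 for Cd9. Pooled Lgals3 was -0.014 with TMM scaling and -0.010 after thinning. Thinning also gave 0.021 and 0.074 for Trem2 in Arg1 and Cxcl9 macrophages, 0.029 for Fabp5 in cDC2 and 0.70 for Fabp4 in migratory dendritic cells. With clusters, Spp1 was -0.15 in Arg1 macrophages and -0.36 in non-classical monocytes, Apoe 0.18 and Fabp5 0.043 in non-classical monocytes, Fabp4 -0.58 in classical monocytes, and Fabp5 -0.42 in cDC1 and -0.024 in migratory dendritic cells, where it was -0.063 without cells near a border. The causes were not tested. TMM scaling lowered all ratios by 0.11 in cDC1 and in plasmacytoid dendritic cells. Depth limits Fabp4, Gpnmb and Cd36, which had 207 to 814 UMIs per library in the pool.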
